A study of Drosophila melanogaster with 12 samples.

Results

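The Bomanins are a family of short peptides made by *Drosophila* after infection, and 10 probe sets of the array that report on them were followed here in *loj* mutant and control females. A probe set was taken as a member if the array annotation gives it only 1 gene whose symbol starts with Bom, or if the study calls it IM3 or IM23, which are the genes *BomS3* and *BomBc1*. The rule found 10 members among 18769 probe sets, array controls aside. Of the 12 Bomanin genes in the RefSeq annotation, *BomT1* has no matched probe set, and *BomS1* (IM1 of the study) is named by neither part of the rule and is given only for comparison. Arrays were hybridized with RNA from 3 *loj* and 3 control samples of head/thorax and 3 *loj* and 3 control samples of abdomen, where abdomens hold the ovaries, genital tract, gut and fat. *loj* samples came from females with the alleles loj 00898 and loj 04026 in trans. Control samples pooled 6 females heterozygous for loj 00898 and 6 heterozygous for loj 04026, so every control also carried a mutant copy of *loj*. All were 4-day-old females mated to a wild-type male and frozen 3 h after mating, 12 females to a sample, on Affymetrix Drosophila Genome 2.0 arrays.

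Bomanins are secreted peptides that depend on the Toll pathway. In flies, proteins in the hemolymph that recognize fungi and gram-positive bacteria start a cascade of proteases that cleaves the ligand Spätzle, which binds the receptor Toll. The inhibitor Cactus is then degraded, and the NF-κB factors Dif and Dorsal enter the nucleus, chiefly in cells of the fat body, the organ that releases immune peptides into the hemolymph. Flies without the main Bomanin gene cluster are poorly protected against the microbes that Toll signaling controls. *BomS* genes encode short peptides with little more than a Bomanin domain, *BomT* genes add a tail to it, and *BomBc* genes encode a pair of domains joined by a linker. *loj* encodes a p24 protein, a type of membrane protein that takes part in transport between the endoplasmic reticulum and the Golgi.

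The *loj* transcript had intensities of 30.9 to 40.3 in *loj* head/thorax and 1034 to 1220 in controls, and of 37.5 to 43.2 in *loj* abdomen and 921 to 1087 in controls. The background level of an array, taken as the 95th percentile over its 27 probe sets for bacterial controls, ran from 76.8 to 256. The 8 ovary marker genes summed to 126 to 238 in *loj* and 142 to 320 in control head/thorax, and to 30228 to 39608 in *loj* and 41976 to 45414 in control abdomen. The 5 eye and brain markers measured summed to 33099 to 34862 in *loj* and 33633 to 35222 in control head/thorax, and to 87.0 to 100.1 in *loj* and 79.6 to 93.6 in control abdomen. Of the 120 values of the 10 members, 0 lay under the background level of their array. Precision is limited by the 3 arrays of each group.

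All 10 Bomanins had a higher mean log2 intensity in *loj* than in control females in each tissue, and 2 of them passed the test, *BomS5* and *BomBc1* in head/thorax. Calls needed a 1.5-fold change together with an adjusted p (limma on log2 intensities, Benjamini-Hochberg over all probe sets) under 0.05. In head/thorax 1.09% of all probe sets were called higher in *loj* and 0.778% lower, and of the members 2 of 10 were called higher and 0 lower. The median log2FC (log2 of the fold change of *loj* over control) of the members there was 0.29, and that of all probe sets was -0.0061. All 3 *loj* arrays lay above all 3 control arrays for 6 of 10 members in head/thorax, and for 11.3% of all probe sets. An unadjusted p under 0.05 with a higher mean in *loj* was reached by the same number, 6 of 10 members, and by 8.71% of all probe sets. In abdomen none of the members was called. Their median log2FC was 1.09, against -0.032 over all probe sets, which is a median of 2.13-fold. Here 0.618% of all probe sets were called higher and 0.256% lower, 0 of 10 members were called, and the lowest adjusted p of a member was 0.0748. The *loj* arrays lay above all control arrays for 8 of 10 members in abdomen and 8.96% of all probe sets. An unadjusted p under 0.05 was reached by 8 of 10 members, against 6.79% of all probe sets. *BomS3* and *BomBc1*, the latter called in head/thorax, became members through the study's lists of genes changed on these same arrays. The counts of members here and below therefore describe them and are no test. RNA was taken from whole body parts, so a change in the share of cells of a type and a change in RNA per cell cannot be told apart.

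**Figure D1:**
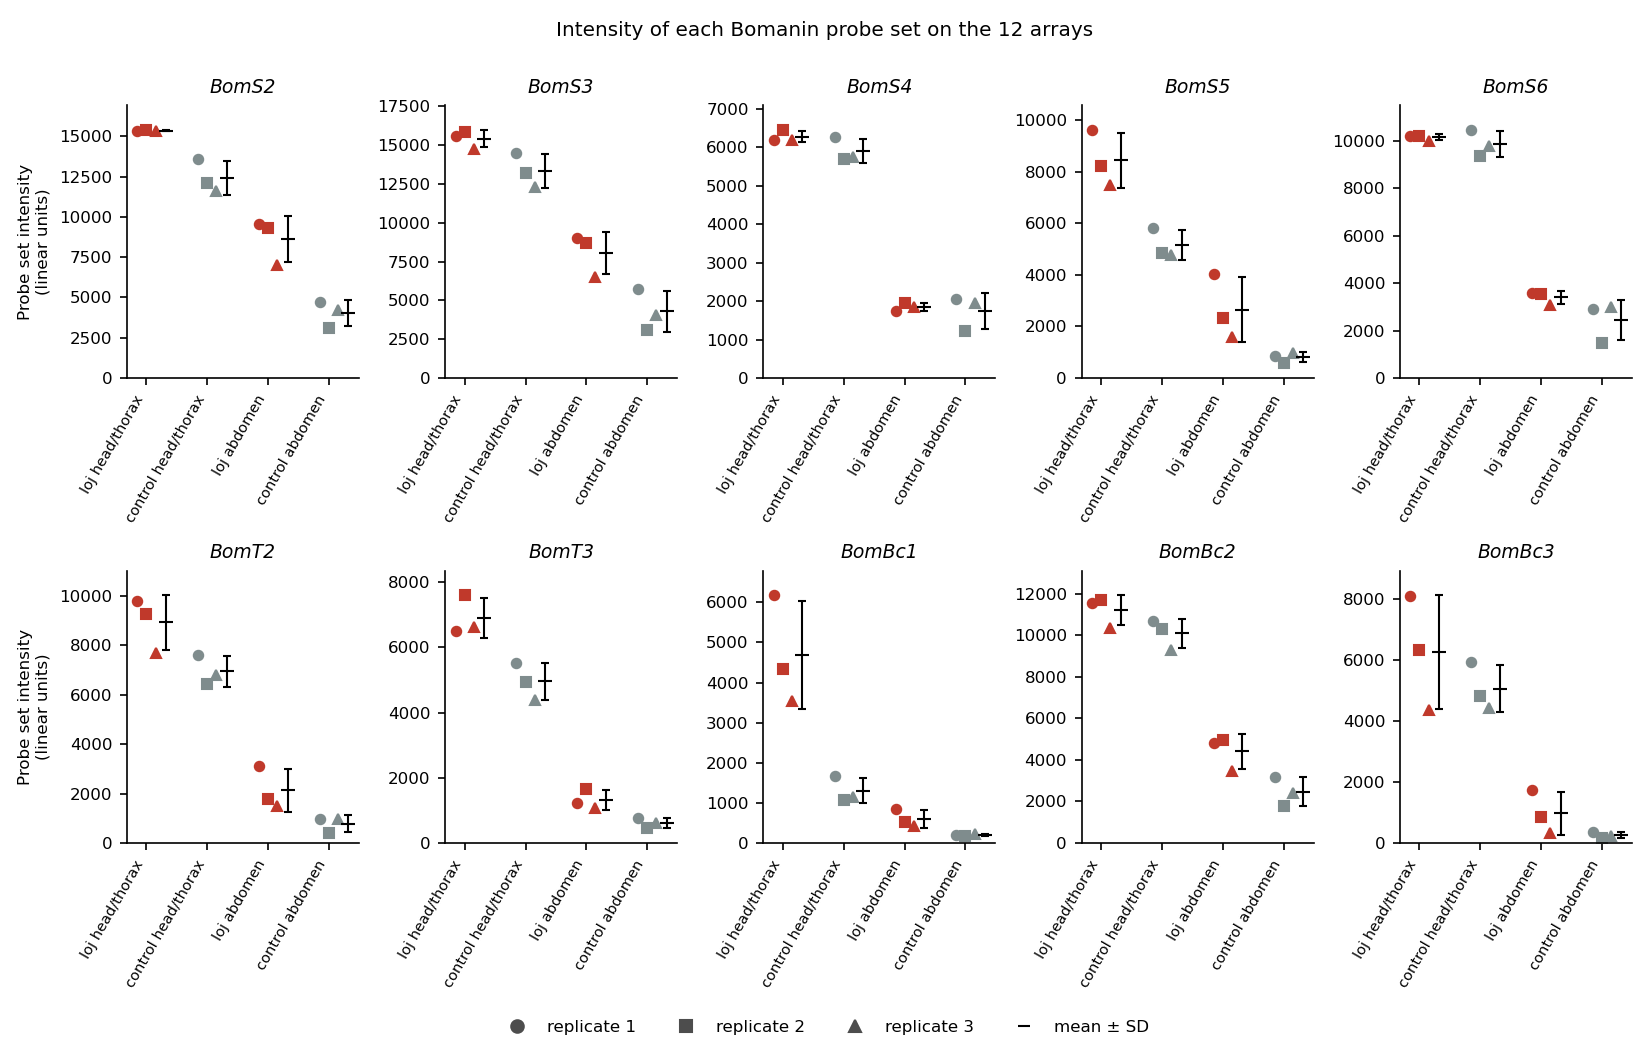
Intensity of each Bomanin probe set (linear units, each panel with its own axis from 0) in *loj* and control head/thorax and *loj* and control abdomen. Symbols are the 3 replicate arrays, and the black mark is their mean ± SD; *BomBc1* in *loj* head/thorax, at 3543 to 6176, lies above its controls at 1085 to 1659.

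The short Bomanins differed widely among themselves. *BomS5* (CG15065) had intensities of 9604, 8227 and 7497 in the 3 *loj* head/thorax samples and 5811, 4847 and 4762 in the controls. In abdomen they were 4041, 2313 and 1605 in *loj* and 871, 592 and 956 in controls. The groups did not overlap in either tissue. *BomS5* rose in *loj* head/thorax with a log2FC of 0.71 (standard error 0.12, adjusted p = 0.0356), which is 1.64-fold (95% interval 1.34 to 2.00). In abdomen its log2FC was 1.64 (standard error 0.37, adjusted p = 0.121), the largest of the members there. The head/thorax call was lost whichever of the 6 arrays was left out, with adjusted p from 0.0533 to 0.129 and log2FC values from 0.62 to 0.81.

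*BomS2* (CG18106) and *BomS3* (CG16844) are neighbours on chromosome arm 2R and read near the upper end of the intensity scale in head/thorax. *BomS2* had 15353, 15368 and 15304 in *loj* head/thorax and 13576, 12096 and 11584 in controls. In abdomen it had 9534, 9328 and 6988 in *loj* and 4737, 3135 and 4226 in controls. *BomS2* thus separated the groups in each tissue, with log2FC values of 0.31 in head/thorax (95% interval 0.15 to 0.46, adjusted p = 0.0633) and 1.10 in abdomen (95% interval 0.62 to 1.58, adjusted p = 0.0748). *BomS3* had 15626, 15824 and 14780.1 in *loj* head/thorax, against 14475, 13241 and 12293 in controls. The *loj* abdomens had 9032, 8674 and 6532, against 5749.5, 3099 and 4037 in control abdomens. Its groups did not overlap either, and its log2FC was 0.21 in head/thorax (adjusted p = 0.179) and 0.94 in abdomen (adjusted p = 0.17).

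In head/thorax the brightest probe set of any *loj* array read 17969.5, which is 1.45 times the mean control intensity of *BomS2* and 1.35 times that of *BomS3*. A 1.5-fold change in these members would therefore have exceeded every value on those arrays. Of 198 probe sets with a control mean of 10000 to 20000 in head/thorax, 0 changed by 1.5-fold in either direction, and the log2FC of *BomS2*, 0.31, was the highest of them. For *BomBc2* and *BomS6* the same ratio in head/thorax was 1.78 and 1.82. In abdomen it was 4.57 for *BomS2* and 4.29 for *BomS3*. The part of the upper end of the intensity scale in the smaller changes in head/thorax was not tested.

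**Figure D2:**
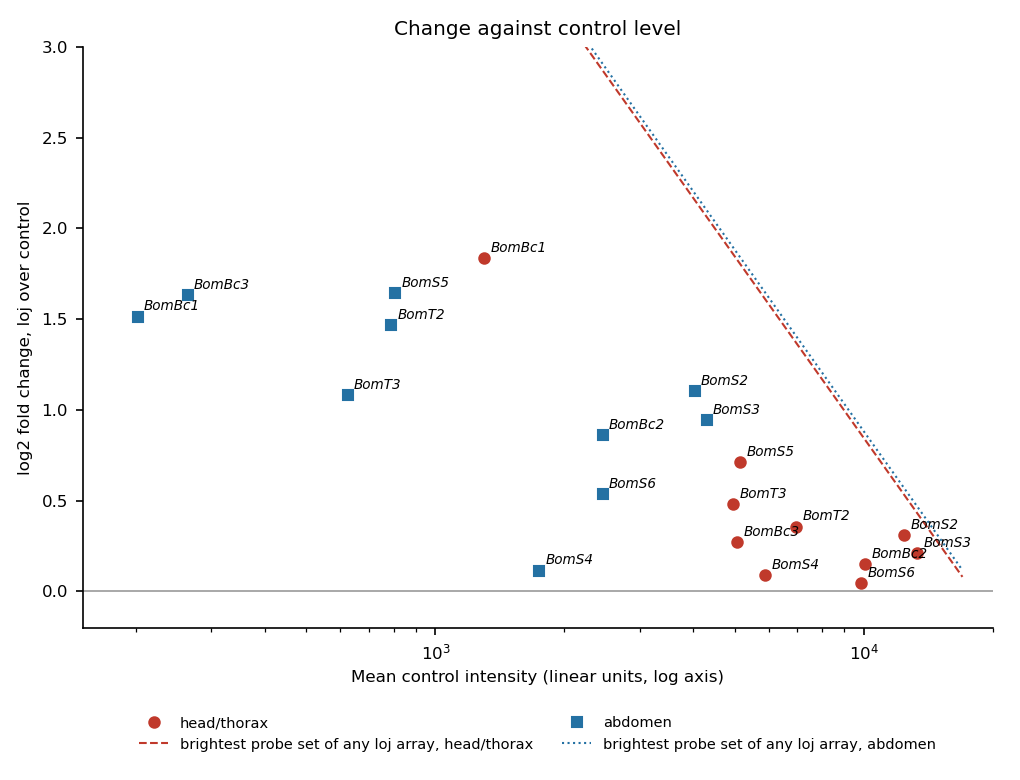
Log2FC of *loj* over control against mean control intensity (log axis), 1 point per Bomanin in head/thorax (circles) and abdomen (squares). The lines mark the fold at which a *loj* mean would equal the brightest probe set of any *loj* array of the tissue; *BomS2* and *BomS3* in head/thorax lie close to it, where the line stands at 1.45-fold and 1.35-fold.

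*BomS4* (CG18107) and *BomS6* (CG15068) had the smallest log2FC values of the short members in each tissue. *BomS4* had 6195, 6439 and 6174 in *loj* head/thorax and 6254, 5681 and 5747 in controls, and 1742, 1951 and 1837 in *loj* abdomen and 2060.5, 1218 and 1960 in controls. The groups overlapped in each tissue, and the 95% interval of the log2FC ran from -0.027 to 0.21 in head/thorax and from -0.39 to 0.62 in abdomen. Its abdomen estimate of 0.11 became -0.13 without control abdomen replicate 2. *BomS6* had 10211, 10225 and 10013 in *loj* head/thorax and 10446, 9348 and 9766.5 in controls, with a log2FC of 0.044 (adjusted p = 0.699) that became -0.0027 after quantile normalization. The *loj* abdomens had 3584, 3555 and 3084, all above the 2902, 1487 and 2978 of the control abdomens, and the log2FC was 0.54 (95% interval -0.15 to 1.23, adjusted p = 0.475). The gene model of *BomS4* overlaps that of *BomBc2* in the RefSeq annotation, while *BomS6* follows *BomS5* directly on arm 2R.

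The tailed members lie on different chromosome arms, *BomT2* (CG16836) on 2R and *BomT3* (CG5778) on 3R beside *BomBc3*. *BomT2* had 9804, 9272 and 7689 in *loj* head/thorax and 7624, 6421 and 6795 in controls, and 3101, 1788 and 1488 in *loj* abdomen and 965, 408 and 991 in controls. Its log2FC was 0.36 in head/thorax (adjusted p = 0.165) and 1.47 in abdomen (standard error 0.44, adjusted p = 0.21). *BomT3* had 6491, 7602 and 6623 in *loj* head/thorax against 5525, 4948 and 4404 in controls. In *loj* abdomen it had 1234, 1652 and 1067, against 774, 476 and 623 in controls. Both members separated the groups in each tissue without reaching a call. *BomT3* came closest, with a log2FC of 0.48 in head/thorax (95% interval 0.23 to 0.73, adjusted p = 0.0689) and 1.08 in abdomen (0.51 to 1.65, adjusted p = 0.112).

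Among the bicipital members, *BomBc1* (CG15066) had the largest change of the family in head/thorax. Its intensities were 6176, 4337 and 3543 in *loj* head/thorax and 1659, 1085 and 1156 in controls. The *loj* abdomens had 848, 521 and 423, and the control abdomens had 203, 171 and 231. The groups did not overlap in either tissue. *BomBc1* rose in *loj* head/thorax with a log2FC of 1.84 (standard error 0.25, adjusted p = 0.0216), which is 3.57-fold (95% interval 2.34 to 5.46), and in abdomen its log2FC was 1.51 (standard error 0.27, adjusted p = 0.0761). The head/thorax call held without *loj* replicate 1 (adjusted p = 0.0332) and without *loj* replicate 3 (0.0362). It was lost without control replicate 1 (0.0575), control replicate 2 (0.084), control replicate 3 (0.0911) or *loj* replicate 2 (0.0866), at log2FC values of 1.72 to 2.03.

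*BomBc2* (CG15067) had 11547, 11676 and 10364 in *loj* head/thorax and 10659, 10295 and 9291 in controls, with a log2FC of 0.15 (adjusted p = 0.35). In abdomen the *loj* samples, at 4793, 4981 and 3442, lay above the controls at 3190.4, 1798 and 2390 (log2FC 0.86, adjusted p = 0.194). *BomBc3* (CG5791) was the member with the widest log2 spread among the *loj* arrays of each tissue (SD 0.45 in head/thorax and 1.23 in abdomen). It had 8103, 6335 and 4379 in *loj* head/thorax and 5932, 4832 and 4442 in controls, and 1729.8, 867 and 319 in *loj* abdomen and 369, 176 and 248 in controls. Its groups overlapped in each tissue, and the abdomen log2FC of 1.63 had a 95% interval of 0.063 to 3.20 (adjusted p = 0.342). *BomS1* (CG18108), which follows *BomBc1* on arm 2R and is no member, averaged 8905 ± 1181 in *loj* head/thorax and 5106 ± 530 in controls (SD, n = 3; log2FC 0.80, adjusted p = 0.0253). It averaged 2380.4 ± 805 in *loj* abdomen and 897 ± 241 in controls (log2FC 1.39, adjusted p = 0.116), and its head/thorax call held in 1 of 6 fits with an array left out.

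**Figure D3:**
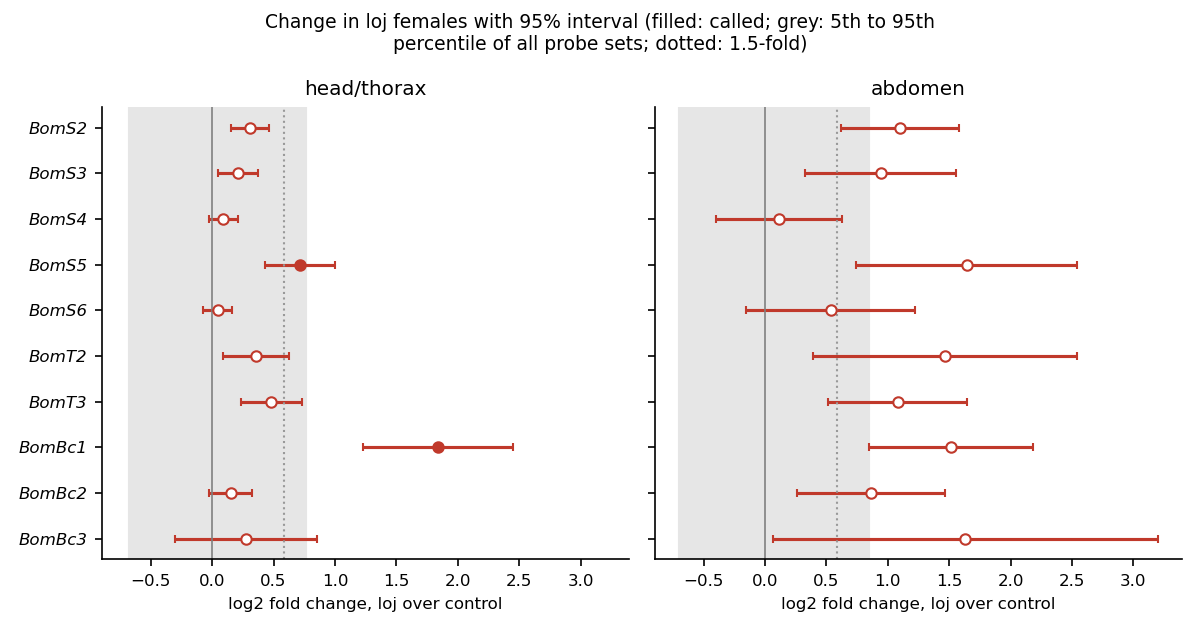
Log2FC of *loj* over control with its 95% interval for the 10 Bomanins in head/thorax and abdomen. Filled points are called, the grey band spans the 5th to 95th percentile of all probe sets and the dotted line is 1.5-fold; 1 member in head/thorax and 8 in abdomen lie beyond the band.

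By class, the median log2FC in head/thorax was 0.21 for the 5 *BomS*, 0.42 for the 2 *BomT* and 0.27 for the 3 *BomBc* members. In abdomen it was 0.94, 1.27 and 1.51. In head/thorax 1 of 10 members, *BomBc1*, lay above the 95th percentile of all probe sets, which was at 0.77, and in abdomen 8 of 10 lay above it at 0.85, all but *BomS4* and *BomS6*. The call counts moved with the test. In abdomen 7 members were called with all 12 arrays in 1 fit, where 306 probe sets were called higher and 113 lower. A Cyber-T style test called 8, where 328 were called higher and 107 lower. That test took the deposited values alone, at an adjusted p under 0.05 and 1.5-fold. The study also used Cyber-T, but asked for p under 0.001 in each of 3 expression measures, so its calls are not the same. In head/thorax the fit of all 12 arrays called 1 member, with 312 probe sets higher and 163 lower, and the Cyber-T style test called 2, with 371 higher and 172 lower. Without limma's intensity trend 0 members were called there, with 98 probe sets higher and 99 lower.

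Fat body and blood cell markers were set beside these changes, as the tissues that make or carry immune peptides. Of 10 fat body markers 0 were called in either tissue. In *loj* head/thorax *FASN1* was lower (log2FC -0.37, adjusted p = 0.0365) and *bmm* higher (log2FC 0.45, adjusted p = 0.0487), each below 1.5-fold. The 10 fat body markers summed to 92217 to 95168 in *loj* and 93763 to 97055 in control head/thorax. In abdomen they summed to 51620 to 53991 in *loj* and 54027 to 59125 in control. Most of each sum was *Yp1*, *Yp2* and *Yp3*, which read near the upper end of the intensity scale. Their control means were 15133 to 16904 in head/thorax and 13009 to 14140 in abdomen. The log2FC of the fat body markers was positive for 5 of 10 in head/thorax, with a median of -0.0095, and for 3 of 10 in abdomen, with a median of -0.083. *Fbp1* was not well above background on any array. Of 11 blood cell markers 0 were called, though *Sr-CI* was lower in *loj* head/thorax (log2FC -0.58, adjusted p = 0.0191, below 1.5-fold). The blood cell markers had a positive log2FC for 9 of 11 in each tissue, with a median of 0.052 in head/thorax and 0.30 in abdomen. They summed to 26831 to 29316 in *loj* and 27476 to 27740 in control head/thorax and to 13490 to 13883 in *loj* and 11538 to 13688 in control abdomen, most of it *Nplp2*; *He* was not well above background on any array. The log2 ratio of the 3' to the 5' probe set of the *Act5C* control was 0.79 to 1.02 in *loj* and 1.33 to 1.44 in control head/thorax, and 0.67 to 0.72 in *loj* and 0.76 to 0.91 in control abdomen (p = 0.1 in either tissue by a two-sided exact permutation test, which is the smallest that 3 against 3 allow). The part of blood cells and RNA quality in the Bomanin values was not tested.

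The change in *loj* was smaller in head/thorax than in abdomen for 9 of 10 members by its estimate, and the difference passed for none. In the limma contrast between tissues, fitted over all 12 arrays, 0.506% of all probe sets had an adjusted p under 0.05 and 0 of 10 members did. At an unadjusted p under 0.05, 6 of 10 members had a smaller change in head/thorax, as had 4.3% of all probe sets. *BomS2*, *BomS3* and *BomBc2* were among these 6. The brightest probe set of any *loj* head/thorax array read 1.45, 1.35 and 1.78 times their control means there. Their folds in abdomen, 2.15, 1.92 and 1.82, were above those ratios. The part of this upper limit in the smaller changes was not tested. *BomS2* had the lowest p, with a difference (head/thorax minus abdomen) of -0.79 on the log2 scale (95% interval -1.25 to -0.34, adjusted p = 0.179). *BomT2* had a difference of -1.11 (-2.13 to -0.094, adjusted p = 0.475) and *BomS5* one of -0.93 (-1.80 to -0.060, adjusted p = 0.493). The exception was *BomBc1*, whose estimate was larger in head/thorax by 0.32 (-0.51 to 1.16, adjusted p = 0.869). *BomS4* had a difference of -0.025 (-0.51 to 0.46, adjusted p = 0.989), and its sign turned when any of 3 arrays was left out.

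Head/thorax had higher Bomanin intensities than abdomen in *loj* and in control females alike. All 10 members were called higher in head/thorax in *loj*, where 35.1% of all probe sets were, and all 10 in control, where 33% were. The median difference of the members was 1.77 in *loj* and 2.37 in control on the log2 scale, and that of all probe sets 0.29 and 0.22. *BomBc3* had the widest difference in control, 4.32 (95% interval 3.23 to 5.40), with 5068 ± 772 in head/thorax and 264 ± 97.9 in abdomen (SD, n = 3). In *loj* its difference was 2.96 (1.87 to 4.05). *BomS2* had the narrowest difference in each genotype, 0.85 in *loj* and 1.64 in control. *BomS2* and *BomS3* read near the upper end of the intensity scale in head/thorax, and its part in their differences was not tested. The tissue differences of all members depend on how arrays of the 2 tissues were scaled, which no source used here gives. After each array was centred on its median, the median of all probe sets was -0.33 in *loj* and -0.37 in control, and the calls over all probe sets were 4002 higher and 6728 lower in *loj* and 4008 higher and 6922 lower in control. As deposited they were 6590 higher and 4040 lower in *loj* and 6198 higher and 4246 lower in control, and after quantile normalization 4867 and 5291 in *loj* and 4788 and 5509 in control. After median centring 8 members in *loj* and 10 in control were called higher in head/thorax, with member medians of 1.14 and 1.78. *BomS2*, at 0.22 (adjusted p = 0.219), and *BomS3*, at 0.32 (adjusted p = 0.156), were the members no longer called in *loj*. Quantile normalization left 9 called in *loj*, all but *BomS2*, and 10 in control.

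**Figure D4:**
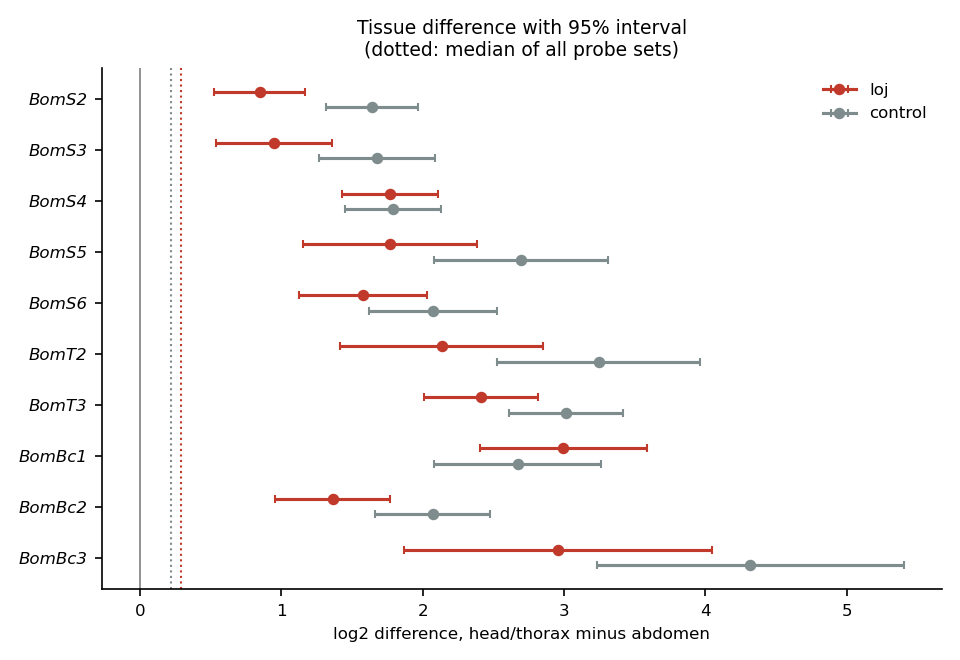
Log2 difference of head/thorax minus abdomen with its 95% interval for each Bomanin in *loj* (red) and control (grey) females, from the values as deposited. All 20 intervals lie above 0, and the dotted lines mark the medians of all probe sets, 0.29 in *loj* and 0.22 in control.

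Replicate arrays moved the members together. Relative to the control mean of its tissue, the median of the 10 members was 0.35, 0.32 and 0.15 on *loj* head/thorax arrays 1, 2 and 3, and 0.13, -0.055 and -0.11 on the control arrays. In abdomen it was 1.19, 1.26 and 0.73 on *loj* arrays 1, 2 and 3, and 0.32, -0.42 and 0.15 on the control arrays. *loj* replicate 3 was the lowest *loj* array for 9 of 10 members in head/thorax and 9 of 10 in abdomen, and control abdomen replicate 2 was the lowest control array for 10 of 10. Control head/thorax replicate 1 was the highest control array of its tissue for 10 of 10. Without control abdomen replicate 2, the median change in abdomen was 0.92. The medians of all probe sets on these arrays lay between -0.035 and 0.041, a narrower range than that of the members. An 18S ribosomal RNA control probe set read 4103 on *loj* head/thorax replicate 1 and 544 and 569 on the other *loj* head/thorax arrays, against 410 to 508 in controls. In abdomen it read 90.3 to 191 in *loj* and 83.2 to 639 in controls. The part of this RNA in the Bomanin values was not tested. Without *loj* head/thorax replicate 1 the member median there was 0.24.

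**Figure D5:**
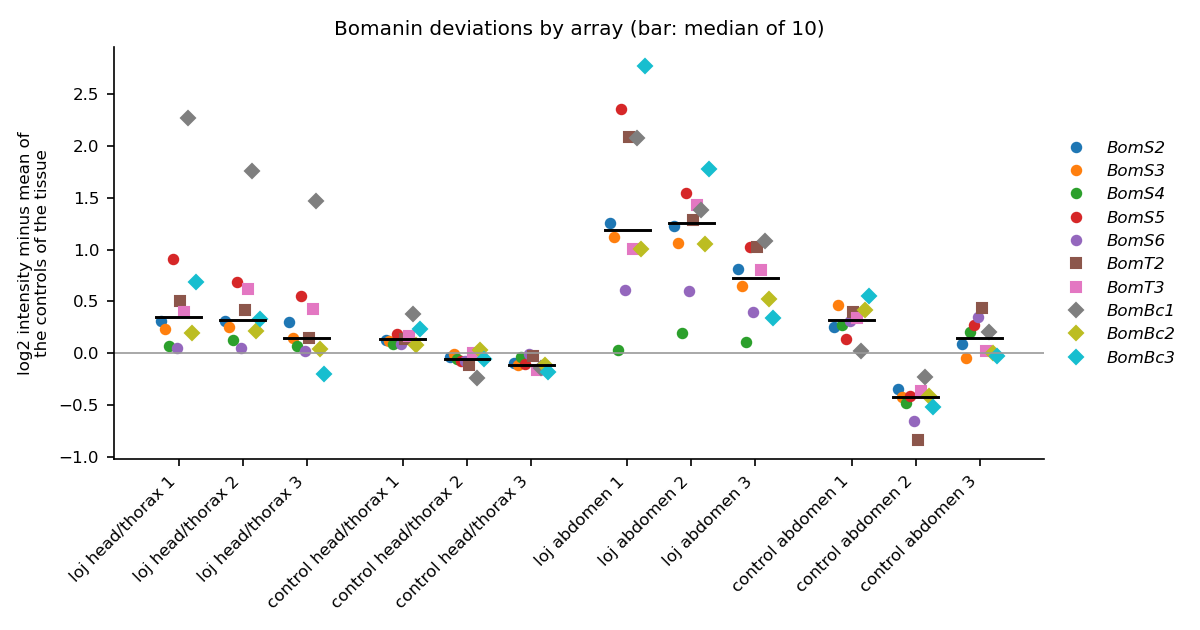
Log2 intensity of each Bomanin on each of the 12 arrays minus the mean of the 3 controls of its tissue. Black bars are the medians of the 10 members, which lie between 0.73 and 1.26 on *loj* abdomen arrays and between 0.15 and 0.35 on *loj* head/thorax arrays.

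With the mean of each tissue removed, 8 of the 10 members correlated over the 12 arrays with the mean of the other 9 by a Pearson r of 0.81 to 0.97. *BomBc1* reached 0.78 and *BomS4* 0.53. Members share arrays, tissue and genotype, so these values describe the arrays and are no test. Of 12413 other probe sets with 1 gene name, the 5 most like the mean of the members were those of *Idgf2* (r = 0.98), which encodes a chitinase-like growth factor, *Bbd* (0.98), which encodes Bombardier, a secreted protein that short Bomanins need for their activity, *CG10910* (0.97), *BomS1* (0.97) and *IM33* (0.97), named for an immune-induced molecule of the hemolymph. In *loj* head/thorax *Idgf2* had a log2FC of 0.21 (adjusted p = 0.0512) and *CG10910* one of 0.32 (adjusted p = 0.0253, below 1.5-fold). In abdomen the values were 0.52 (adjusted p = 0.128) and 1.11 (adjusted p = 0.0717).

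Of 8 measured genes for other short peptides induced through Toll, 3 rose in head/thorax and 0 were called in abdomen. All 8 had a positive log2FC in each tissue, with median log2FC values of 1.18 and 1.59. Here and in the lists that follow, a gene that rose was called higher. Over all probe sets 1.09% were called higher in head/thorax and 0.618% in abdomen. *BaraA1*, a precursor cut into several immune peptides, was 9011 ± 664 in *loj* and 3469 ± 91.9 in control head/thorax (SD, n = 3; log2FC 1.37, adjusted p = 0.000857). *BaraA2*, its near-identical duplicate, was 13171 ± 872 in *loj* and 5669 ± 354 in control head/thorax (log2FC 1.22, adjusted p = 0.00168), and their probe sets may share transcripts. *GNBP-like3*, a small secreted protein related to pattern recognition proteins, was 5786 ± 438 in *loj* and 1259 ± 347 in control head/thorax (log2FC 2.23, adjusted p = 0.00714). *BaraB* was not well above background on any array. The calls of *BaraA1*, *BaraA2* and *GNBP-like3* held in 6 of 6 fits with an array left out. *Bbd* had a log2FC of 0.44 in head/thorax (adjusted p = 0.109) and 1.34 in abdomen (adjusted p = 0.0948). *Dso1* had one of 0.083 in head/thorax, at a control mean of 12969, and 0.66 in abdomen, at a control mean of 3941 (adjusted p = 0.305 and 0.271).

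Of 11 measured antimicrobial peptide genes, 3 rose in head/thorax and 0 were called in abdomen, with median log2FC values of 1.34 and 1.03. Drosomycin (*Drs*), an antifungal peptide, was 11601 ± 2361 in *loj* and 2418 ± 678 in control head/thorax (SD, n = 3; log2FC 2.28, adjusted p = 0.0112). Cecropin B (*CecB*) was 1057 to 2832 in *loj* and 63.3 to 121 in control head/thorax (adjusted p = 0.00887), and the drosomycin-like gene *Drsl6* was 1766 to 5233 in *loj* and 15.6 to 159 in controls (adjusted p = 0.0392, or 0.0641 if replicate number was a block). The control values of *CecB* and *Drsl6* were not well above background. With an array left out, the calls of *Drs*, *CecB* and *Drsl6* held in 4, 5 and 1 of 6 fits. *Drsl4*, another gene of that group, had a log2FC of -0.24 in head/thorax (adjusted p = 0.074).

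Of 10 genes in a list for recognition, proteases and their control, 4 rose in head/thorax and 1 in abdomen, with median log2FC values of 0.50 and 0.41. That list also held the ligand gene *spz* and the serpin genes *nec*, *Spn27A* and *Spn28Dc*. The abdomen call was *Spn28Dc*, so it was not a gene for recognition or a protease. In head/thorax 9 of the 10 had a positive log2FC. Below 1.5-fold there, *grass* had a log2FC of 0.52 (adjusted p = 0.0101) and *nec* one of 0.42 (adjusted p = 0.0437). *PGRP-SA*, which binds the cell wall of gram-positive bacteria, was 2624 ± 822 in *loj* and 699 ± 37.9 in control head/thorax (SD, n = 3; log2FC 1.87, adjusted p = 0.0132). The protease gene *Hayan* rose by 0.93 on the log2 scale (adjusted p = 0.0102). The serpin genes *Spn27A*, whose product restrains Toll activation and melanization, and *Spn28Dc*, whose product restrains melanization, had log2FC values of 0.96 (adjusted p = 0.0168) and 2.53 (adjusted p = 0.0444). With replicate number as a block these 4 had adjusted p values of 0.0514, 0.0559, 0.0806 and 0.105, and with an array left out their calls held in 3, 3, 1 and 2 of 6 fits. In abdomen *Spn28Dc* was 300 to 433 in *loj* and 90.3 to 91.1 in controls, which were not well above background (adjusted p = 0.0144, and 0.0883 with the block).

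Of 9 genes in a list from the receptor to the NF-κB factors, 2 rose in head/thorax and 0 in abdomen, with median log2FC values of 0.38 and 0.017. That list also held *pirk*, a gene of the Imd pathway, so *cact* was the only Toll gene called in it. *cact*, which encodes the inhibitor Cactus and is itself a Toll target, was 3665 ± 514 in *loj* and 1955 ± 56.3 in control head/thorax (SD, n = 3; log2FC 0.90, adjusted p = 0.0131, and 0.0641 with the block). Its log2FC in abdomen was 0.041 (adjusted p = 0.939). *pirk*, whose product restrains the neighbouring Imd pathway, was 2099 ± 229 in *loj* and 347 ± 53.0 in control head/thorax (log2FC 2.60, adjusted p = 0.00152). The call of *pirk* held in 6 of 6 fits with an array left out and that of *cact* in 3. *Dif*, the factor that drives most Toll targets in adults, had a log2FC of 0.15 in head/thorax (adjusted p = 0.183) and 0.34 in abdomen (adjusted p = 0.558).

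Among 10 genes listed as Toll targets that are not short peptides, 3 rose in each tissue, with median log2FC values of 0.73 in head/thorax and 1.25 in abdomen. The study states that the genes activated by Toll and by Imd sometimes overlap. Which pathway acted on the listed genes was not tested. *Hayan*, given above, *Spn88Eb* and *Fst* rose in head/thorax. *Spn88Eb*, a serpin gene, was 3587 ± 485 in *loj* and 861 ± 79.0 in controls (SD, n = 3; log2FC 2.05, adjusted p = 0.00168), and *Fst*, a gene induced in recovery from cold, had a log2FC of 2.79 (adjusted p = 0.0347). In abdomen *Fst* was 3702 ± 1314 in *loj* and 335 ± 80.6 in controls (log2FC 3.44, adjusted p = 0.0144). *Tep4*, which encodes a complement-like protein, and *Idgf3*, a gene of the same chitinase-like group as *Idgf2*, had log2FC values in abdomen of 1.06 and 1.54 (adjusted p = 0.0144 each). With replicate number as a block the adjusted p of these abdomen calls was 0.0883. With an array left out, the head/thorax calls of *Spn88Eb* and *Fst* held in 6 and 1 of 6 fits, and the abdomen calls of *Fst*, *Idgf3* and *Tep4* in 2, 2 and 1.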

How the data were processed

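RNA of 12 samples was measured on Affymetrix Drosophila Genome 2.0 arrays. The deposited values are linear probe set intensities, 1 per probe set and array. The study computed expression with GCOS and with dChip, by dChip from perfect match probes alone and after mismatch correction; GCOS 1.2 is named in the submitters' processing notes. Neither the measure that was deposited nor the scaling between arrays is given in the sources used here. Of the values of the 18769 probe sets tested, 2.02% are below 0. The 183 array control probe sets were left out of the tests.

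Log2 was taken after raising intensities below 1 to 1, and limma 3.58.1 (R 4.3.3) was fitted with eBayes and its intensity trend. Tissues were fitted apart for *loj* against control, and 4 group means were fitted on all 12 arrays for the other comparisons. Adjusted p values are Benjamini-Hochberg values over all 18769 probe sets. A call needs an adjusted p under 0.05 and 1.5-fold, and for genotype by tissue an adjusted p under 0.05 alone. The array annotation gives 13646 probe sets 1 gene symbol, 402 several and 4721 none; 11 of these, *BomS3* and *BomBc1* among them, were named from the study's tables. Chromosome arms and gene order come from RefSeq (assembly Release 6 plus ISO1 MT). For a listed gene with several probe sets, the one with the highest mean log2 intensity stands for it. Every member is named, as is *loj*. Also named are called genes of the 5 context lists, up to 4 per list and tissue by adjusted p. The 5 probe sets most like the members are named too. *BomS1*, *Bbd*, *Dso1*, *BaraB*, *Drsl4* and *Dif* were added after their values were seen where that rule does not name them. So were *Fbp1*, *He*, *Nplp2*, *Yp1*, *Yp2*, *Yp3*, *FASN1*, *bmm*, *Sr-CI*, *grass* and *nec*. The members and lists were chosen with earlier results of these data known. Per the labels, samples came from independent RNA extractions.

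Alternatives were quantile normalization, centring of arrays on the median, an added 32 before log2, a filter on dim probe sets, no intensity trend, replicate number as a block, all 12 arrays in 1 fit, unadjusted p under 0.001, a Cyber-T style test (window 101, confidence 10) and leaving out each array. The test was checked on simulated data.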

Additional observations from a re-analysis of the deposited data

Results flagged for a closer look

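None of the 10 Bomanins had a change in *loj* that passed the test of a difference between tissues. Among the other genes named, 4 did (difference of log2 fold changes, head/thorax minus abdomen, limma on all 12 arrays). Over all probe sets 0.506% did. Most of the other genes were named because they were called in a tissue on these same arrays, which favours such a difference. *pirk*, *CecB* and *Drs* were called in head/thorax alone and *Idgf3* in abdomen alone. The count therefore describes these genes and is no test. *pirk* differed by 2.56 (adjusted p = 0.000458). *CecB* differed by 2.75 (adjusted p = 0.0448) on measured values, with its control head/thorax values not well above background, and *Drs* by 1.73 (adjusted p = 0.0325). *Idgf3* had the smaller change in head/thorax, with a difference of -1.08 (adjusted p = 0.00373). *pirk* and *Idgf3* passed in 12 of 12 fits with an array left out, and *CecB* and *Drs* in 2 of 12.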

How the results depend on the processing

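Of the 10 members, the count called in head/thorax was 2 as reported (350 calls over all probe sets), 1 after quantile normalization (375), 0 without the intensity trend (197), 1 with all 12 arrays in 1 fit (475), and 0 to 1 with an array left out (93 to 395). In abdomen it was 0 as reported (164 calls over all probe sets), 2 after median centring (244), 4 without dim probe sets (301), 7 with all 12 arrays in 1 fit (419), 8 with a Cyber-T style test (435) and 0 with an array left out (22 to 52). The cause of these differences was not tested. The median change stayed between 0.22 and 0.39 in head/thorax and between 0.92 and 1.24 in abdomen. All 10 members were called higher in head/thorax than in abdomen in control females under every alternative run, and 8 to 10 in *loj* females. Signs turned for *BomS6* in head/thorax (-0.0027, quantile normalization), for *BomS4* in abdomen (-0.13 to 0.25 with an array left out, the lowest without control abdomen replicate 2) and for its difference between tissues (-0.16 to 0.22, with 0.22 without control abdomen replicate 2, 0.019 without control head/thorax replicate 1 and 0.017 without *loj* abdomen replicate 2). Outside the family they turned in abdomen for *Hayan* (-0.028 without *loj* replicate 1), *cact* (-0.029 after quantile normalization, and -0.043 to 0.16 with an array left out, below 0 if control replicate 3 or *loj* replicate 1 was) and *pirk* (-0.10 without control replicate 3 and -0.0037 without *loj* replicate 1). Over all probe sets the replicate block leaves 77 higher and 58 lower in head/thorax, against 204 and 146 without it, and 0 and 1 in abdomen, against 116 and 48. Without the intensity trend 55 probe sets were called in abdomen, and 543 by a Cyber-T style test in head/thorax. The block changed no member call: *BomBc1* and *BomS5* kept theirs in head/thorax (adjusted p = 0.0282 and 0.0289), and the counts of members called stayed at 2 in head/thorax, 0 in abdomen, 0 for the difference between tissues and 10 for head/thorax against abdomen in *loj* and in control females. Residuals of equally numbered *loj* and control arrays correlated by 0.048, 0.044 and 0.12 in head/thorax and by -0.011, -0.0074 and 0.031 in abdomen over all probe sets, and the labels do not say what a number shares, so *loj* and control samples were not taken as pairs. Over the brighter probe sets these values were 0.13, 0.11 and 0.13 in head/thorax and -0.0099, 0.081 and 0.20 in abdomen. Equally numbered head/thorax and abdomen arrays correlated there by 0.38, 0.17 and 0.36 in *loj* (-0.35 to -0.038 between other numbers) and by 0.030, 0.12 and 0.28 in control (-0.21 to 0.13), a hint from the data and not the design that the body parts of a number share a source. In the fits over both tissues the block was genotype and number, so its counts above allow for this.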
